A study of Solanum tuberosum with 8 samples.

Results

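Peroxidases (POD) of the potato tuber were followed after cut-wounding at the level of their transcripts. The members are the 39 genes that the study listed as POD, taken from 41 distinct identifiers after leaving out 2 whose descriptions name a short-chain dehydrogenase and a protein of unknown function, out of 42667 genes in the expression table. RNA sequencing covered tubers of cultivar X2 and cultivar D6 sampled at 4 times relative to cutting (0, 4, 12 and 24 h), with 0 h as the control. X2 gave 11 libraries (3 at 0, 4 and 12 h and 2 at 24 h) and D6 gave 10 (1 at 0 h and 3 at each later hour), and the study describes a replicate as a mix of 3 tubers. X2 (Xingjia 2) is a tetraploid cultivar, cut across and kept in trays at high relative humidity. How D6 was treated is not given in the sources used here beyond its cultivar name and hour.

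Plant secretory peroxidases of class III are heme enzymes that use hydrogen peroxide to oxidise phenolics. In cell walls they cross-link monolignols and the phenolic domain of suberin, the barrier that potato tubers lay down over a cut surface, and they also take part in forming and removing reactive oxygen species. Anionic members associated with suberization are known from wounded potato tuber and tomato. The family is large, and most members cannot be given a role from their sequence names alone.

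Of the 39 members, 15 carried no description beyond "Peroxidase", and the 4 predicted genes were described by their closest peroxidase in potato or tomato. Members lay on 12 chromosomes, 11 of them on chromosome 2. Positions are those of the SolTub_3.0 assembly. For 12 members the gene length behind the values was greater than the listed span, so the listed positions may be partial for them.

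Designed qPCR primers are shown for 4 members, because these are the short designed sequences that identify genes described below. The first and second of the genes were highest at 4 h, the third was highest at 24 h, and the last differed between the cultivars at 12 h. All are written 5′ to 3′ in lower case, forward then reverse.
PGSC0003DMG401025083 forward: aacggagcaagcgacgat
PGSC0003DMG401025083 reverse: ggtcgcatcgaggccttt
PGSC0003DMG400032147 forward: ggctggaggtccatcatgg
PGSC0003DMG400032147 reverse: tgcaagggtttcagtggga
PGSC0003DMG400005062 forward: cccttgctgctcgtgact
PGSC0003DMG400005062 reverse: ttggattaacgcgccggt
PGSC0003DMG400015548 forward: tggtgttgtctcttgtgccgata
PGSC0003DMG400015548 reverse: ttgcggttctactgtctcttcgt
The first pair belongs to a gene on chromosome 4, the second to one on chromosome 1, the third to one on chromosome 3 and the last to one on chromosome 11.

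Values are FPKM, read numbers scaled to gene length and to the mapped reads of the library. Reads on genes, recovered from the steps between low values, ranged from 29746314 to 44921591 in X2 and from 24226307 to 35649617 in D6. Libraries of the same cultivar and hour correlated at 0.979 to 0.994 on the log2(FPKM + 1) scale, against 0.664 to 0.959 between groups, and no library stood apart. These correlations cover genes with a mean of at least 0.5 FPKM over all libraries. The one patatin gene named in the study's tables, which encodes the tuber storage protein, was at 19.0 ± 11.8 FPKM (SD, n = 3) in X2 at 0 h and at 0.199 ± 0.0107 (SD, n = 2) at 24 h. In D6 this gene was at 11.8 in the 0 h library, 1.72 ± 0.775 at 4 h, 6.32 ± 7.88 at 12 h with 1 library at 15.2, and 1.92 ± 2.71 at 24 h (SD, n = 3 each). X2 was at 1.66 ± 2.09 at 4 h and 0.852 ± 0.716 at 12 h (SD, n = 3 each). Scatter was thus greater in D6 than in X2 at 12 h and 24 h but not at 4 h. A chlorophyll a/b-binding protein gene, a marker of green tissue, went from 0.0452 ± 0.0478 (SD, n = 3) to 5.43 ± 0.233 FPKM (SD, n = 2) over the same hours in X2, and was at 0.271 in the D6 library at 0 h and 13.8 ± 6.42 (SD, n = 3) in D6 at 24 h. The chlorophyll-binding gene is on the study's list of genes with large changes after cutting, so its rise is not independent of that choice. With 1 gene of each kind, these values do not measure a shift of tissue. The part of these changes in the peroxidase results was not tested. In such bulk samples, fewer cells of a type and less RNA per cell cannot be told apart.

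The family sum was higher at every hour after cutting than at 0 h, while single genes peaked at different hours. The summed FPKM of all 39 members was 102 ± 27.8 (SD, n = 3) in X2 at 0 h, then 887 ± 56.3 (n = 3) at 4 h, 862 ± 29.9 (n = 3) at 12 h and 1244 ± 170 (n = 2) at 24 h. In D6 it was 181 in the single library at 0 h, then 1710 ± 191, 1327 ± 200 and 1544 ± 125 (SD, n = 3 each). The 4 leading genes made up 83.2% of the sum in X2 at 4 h and 59.8% at 24 h, and in D6 80.6% and 52.3%. The leading genes changed with the hour. PGSC0003DMG400016453, described as a secretory peroxidase, alone gave 42.0% of the X2 sum and 49.4% of the D6 sum at 0 h.

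Grouped by the hour of the highest X2 mean, 7, 11, 4 and 17 members were highest at 0, 4, 12 and 24 h. In D6 the numbers were 6, 11, 9 and 13. Of the 31 members with a mean of at least 0.5 FPKM over all libraries, 3, 10, 3 and 15 were highest at these hours in X2, against 25.8%, 31.7%, 18.8% and 23.6% of the 20353 genes on the same base. For D6 the numbers were 2, 10, 8 and 11 of 31, against 28.8%, 31.0%, 19.6% and 20.7%. The 4 h share of members was thus close to that of all genes, the 24 h share was above it and the 0 h share below it, given as a description with no test. The 12 h share was below that of all genes in X2 and above it in D6. The study chose these members on the X2 samples, so the shares are not independent of that choice. The hour was the same in both cultivars for 31 of 39 members, and for 23 of the 31 on that base, which is near the background of 72.0%. Of the 17 members highest at 24 h in X2, 12 were highest at 24 h in D6 too, 4 at 12 h and 1 at 4 h. Libraries of the highest hour lay above all others of their cultivar in 25 of the 31 members on that base in X2, against 64.9% of genes, and in 17 of 31 in D6, against 62.9%.

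**Figure D1:**
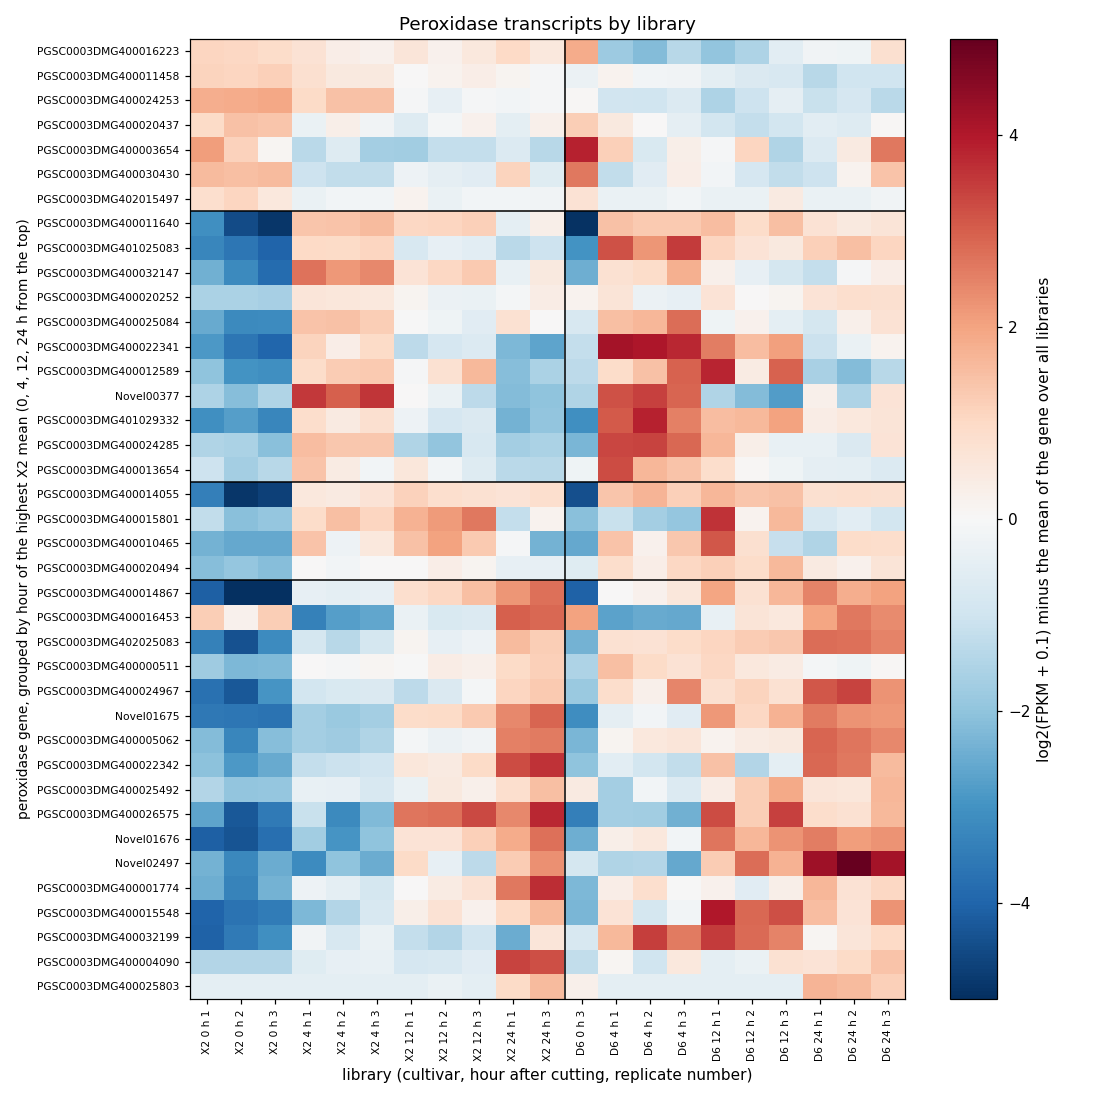
Each row is one of the 39 peroxidase genes and each column one of the 21 libraries, coloured by log2(FPKM + 0.1) minus the mean of the gene over all libraries, with colours saturated at 5. Black lines part the X2 groups of 7, 11, 4 and 17 members highest at 0, 4, 12 and 24 h, and the 2 cultivars, and most rows show their reddest cells at the same hour on both sides.

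Among the members highest at 4 h, PGSC0003DMG400011640 had the highest mean at that hour in X2 (277 FPKM) and PGSC0003DMG401025083 (Peroxidase 12) in D6 (542 FPKM). The X2 libraries of PGSC0003DMG401025083 were at 6.76, 5.19 and 4.01 FPKM at 0 h, 129, 126 and 137 at 4 h, 37.2, 48.6 and 44.6 at 12 h, then 25.6 and 31.7 at 24 h. In D6 it was at 8.19 at 0 h, 594, 302 and 730 at 4 h, 138, 105 and 90.8 at 12 h, then 150, 187 and 136 at 24 h. All 4 h libraries were above those of every other hour in both cultivars, and every D6 library after cutting was above every X2 library of its hour. PGSC0003DMG400011640 was at 11.9, 4.50 and 3.36 FPKM at 0 h in X2, 261, 269 and 302 at 4 h, 205, 212 and 228 at 12 h, then 72.0 and 124 at 24 h. In D6 it went from 3.22 to 277, 248 and 252 at 4 h, then 291, 190 and 284 at 12 h and 164, 142 and 158 at 24 h. The 4 h and 12 h libraries of D6 overlapped. PGSC0003DMG400032147 was at 2.61, 1.49 and 0.903 FPKM in X2 at 0 h, 94.4, 64.6 and 77.0 at 4 h, 22.9, 29.7 and 35.9 at 12 h, then 11.1 and 20.2 at 24 h. Its D6 libraries were at 2.57, then 24.2, 27.0 and 49.6 at 4 h, 16.9, 10.7 and 7.77 at 12 h, then 6.21, 13.9 and 18.2 at 24 h. Here the X2 libraries lay above those of D6 at 4 h and at 12 h. PGSC0003DMG400025084 (Peroxidase 4) was at 0.740, 0.435 and 0.448 FPKM at 0 h in X2 and at 12.9, 13.1 and 11.1 at 4 h, then 4.61, 4.06 and 3.14, then 8.01 and 4.77. D6 libraries of this gene were at 2.67, then 13.4, 15.1 and 33.3, then 4.02, 5.48 and 3.29, then 2.54, 5.61 and 7.93. Both cultivars had their highest libraries at 4 h. Among the other members highest at 4 h in X2, PGSC0003DMG400020252 and PGSC0003DMG400022341 had means of 14.1 and 12.8 FPKM at that hour. Novel00377, a peroxidase 43-like gene, had 8.03, 5.41 and 8.10 FPKM at 4 h in X2 and no more than 0.597 in any other X2 library.

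Of the 4 members highest at 12 h, only PGSC0003DMG400014055 was abundant. Its X2 libraries were at 16.0, 5.70 and 6.66 FPKM at 0 h, 247, 234 and 275 at 4 h, 378, 305 and 289 at 12 h, then 275 and 306 at 24 h. The D6 libraries were at 8.05 FPKM, then 444, 551 and 391, then 535, 444 and 475, then 297, 304 and 300. The gene was already near its highest level at 4 h, and its 12 h and 24 h libraries overlapped in X2. PGSC0003DMG400015801, described as a bacterial-induced peroxidase, reached 1.34, 1.79 and 2.55 FPKM in X2 at 12 h. It overlaps PGSC0003DMG402015792 on the other strand of chromosome 3, and the counting is not stated to use strand, so its reads are uncertain.

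Members highest at 24 h included the late risers of high abundance. PGSC0003DMG400014867 was at 1.84, 0.724 and 0.890 FPKM in X2 at 0 h, 24.8, 23.2 and 25.04 at 4 h, 59.0, 68.2 and 93.3 at 12 h, then 152 and 224 at 24 h. D6 had 1.92 FPKM, then 33.8, 38.0 and 48.3, then 129, 56.2 and 103, then 183, 115 and 133. The X2 libraries did not overlap between any hours. PGSC0003DMG400005062 was at 2.41, 1.08 and 2.49 FPKM at 0 h in X2, 3.41, 3.22 and 3.86 at 4 h, 10.5, 9.27 and 9.95 at 12 h, then 64.3 and 67.9 at 24 h. Values in D6 were 2.21 FPKM, then 12.6, 16.1 and 17.4, then 12.8, 15.2 and 15.7, then 85.1, 71.9 and 60.7. It was higher early in D6, while the 24 h libraries of the cultivars overlapped. PGSC0003DMG400024967 was at 1.59, 1.06 and 2.76 FPKM in X2 at 0 h, 11.6, 13.0 and 13.2 at 4 h, 8.74, 13.5 and 20.4 at 12 h, then 47.2 and 55.5 at 24 h. D6 libraries had 5.95 FPKM, then 41.0, 26.2 and 121, then 38.3, 47.5 and 37.4, then 190, 228 and 105. One D6 library at 4 h, replicate 3, stood far above the other two of its hour.

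Novel02497, described by a tomato peroxidase 11, was at 0.415, 0.181 and 0.379 FPKM in X2 at 0 h, 0.196, 0.557 and 0.381 at 4 h, 5.09, 1.91 and 0.960 at 12 h, then 6.37 and 12.7 at 24 h. D6 showed 1.35 FPKM, then 0.822, 0.872 and 0.350, then 6.29, 18.3 and 8.76, then 49.98, 90.3 and 47.6. The X2 libraries at 4 h overlapped with those at 0 h, and the D6 libraries at 24 h were above all others. Novel01675 and Novel01676, both peroxidase 49-like, both rose from 0 h to 24 h in X2. Novel01675 was at 0.835, 0.812 and 0.760 FPKM, then 3.37, 3.002 and 3.35, then 21.4, 21.7 and 28.1, then 58.7 and 85.6 in X2. In D6 it had 1.21, then 8.24, 10.04 and 7.56, then 50.2, 23.1 and 37.02, then 68.3, 52.9 and 50.1. Novel01676 went from 0.110 ± 0.0373 FPKM (SD, n = 3) at 0 h to 17.8 ± 7.68 (SD, n = 2) at 24 h in X2. They overlap on the same strand of chromosome 2, so how reads were shared between them is uncertain. PGSC0003DMG400000511, described as a class III peroxidase, was at 4.06, 2.89 and 2.99 FPKM in X2 at 0 h, then 14.5, 13.7 and 15.1, then 14.2, 18.6 and 17.03, then 27.6 and 33.0, while in D6 it was at 4.77, then 40.8, 28.0 and 23.6, then 29.4, 20.6 and 18.7, then 13.2, 12.1 and 14.8. It was the only member called in opposite directions from 4 h to 24 h among the 29 tested in both cultivars.

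The secretory peroxidase PGSC0003DMG400016453 was lower at 4 h than at any other hour in both cultivars. Its X2 libraries were at 51.6, 25.2 and 51.2 FPKM at 0 h, 1.997, 3.17 and 3.54 at 4 h, 17.3, 12.9 and 13.7 at 12 h, then 176 and 159 at 24 h. The course in D6 was 89.5 FPKM, then 3.38, 3.75 and 3.60, then 16.9, 34.3 and 31.5, then 86.2, 135 and 114. No X2 library overlapped between hours. At 4 h it was the one member called lower than at 0 h in X2.

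**Figure D2:**
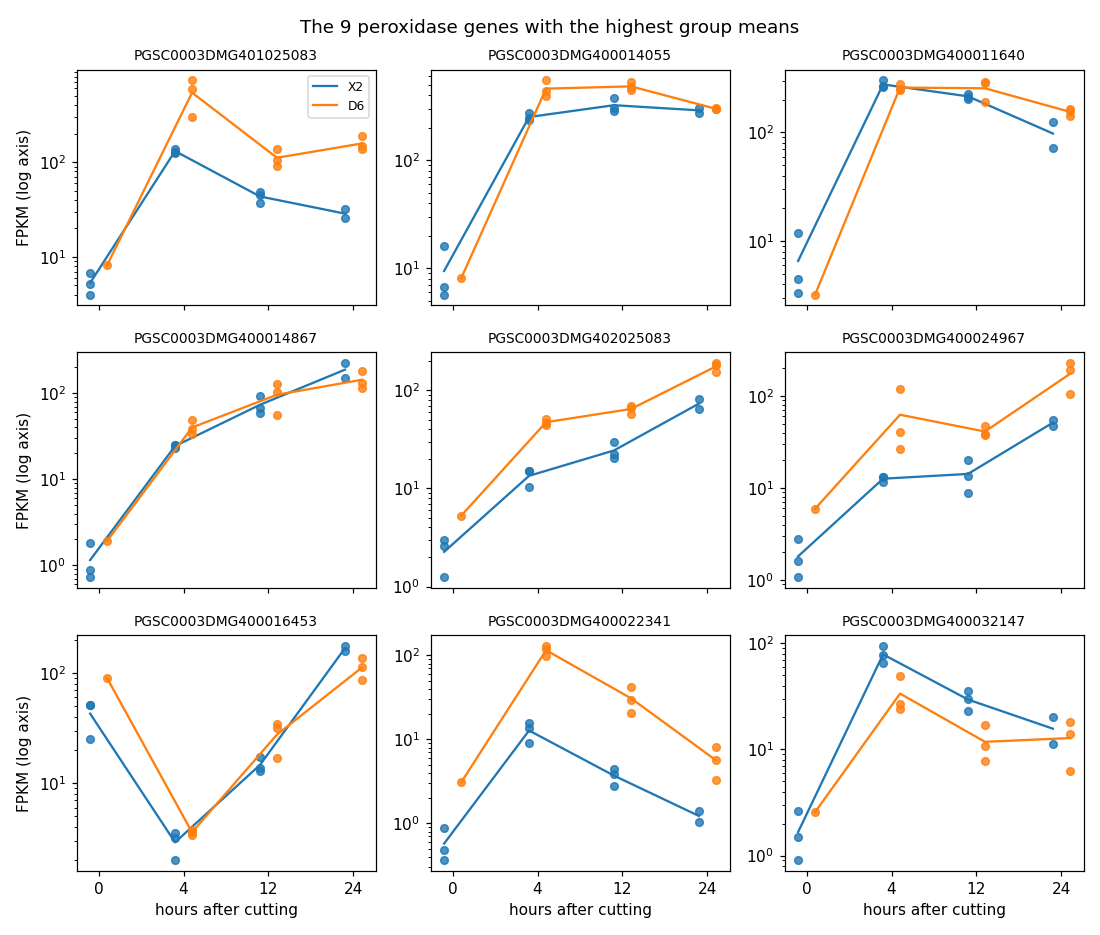
FPKM on a log axis against hours after cutting (hours drawn at equal spacing) for the 9 peroxidase genes with the highest group means, with 1 point per library and lines through the group means, X2 in blue and D6 in orange. PGSC0003DMG400016453 falls to 2.90 FPKM in X2 and 3.58 in D6 at 4 h, the hour at which PGSC0003DMG401025083 reaches 131 and 542.

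The 7 members highest at 0 h in X2 were of low abundance. PGSC0003DMG400011458 (Peroxidase 40) went from 7.54, 7.29 and 7.99 FPKM at 0 h to 3.84 and 3.29 at 24 h, and PGSC0003DMG400016223 (Peroxidase 17) was at 6.98, 6.86 and 6.30 at 0 h and 6.59 and 4.71 at 24 h. In D6, PGSC0003DMG400016223 was at 12.0 at 0 h and at 0.857, 0.651 and 1.19 at 4 h, and PGSC0003DMG400011458 was highest at 4 h, with 3.87, 3.14 and 3.06. PGSC0003DMG400024253 (Peroxidase 66) was at 1.21, 1.22 and 1.32 FPKM at 0 h in X2 and 0.234 and 0.256 at 24 h. PGSC0003DMG400003654 was at 1.49, 0.736 and 0.308 at 0 h and no more than 0.141 later in X2, and at 5.35 in D6 at 0 h. The anionic peroxidase swpa7 gene PGSC0003DMG400030430 was at 0.591, 0.570 and 0.598 at 0 h in X2, with 128 reads over the 3 libraries against 1 read over the 3 libraries at 4 h. PGSC0003DMG400020437 was at 0.343, 0.535 and 0.503, and PGSC0003DMG402015497, described as a pericarp peroxidase, at 0.128, 0.170 and 0.0814, all at 0 h in X2. For that last gene 29 reads stood over the 3 libraries at 0 h and 2 over those at 4 h.

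Members lie next to each other in 4 places. The suberization-associated anionic peroxidases PGSC0003DMG400022341 (chr2:35183497-35186539, minus strand) and PGSC0003DMG400022342 (chr2:35169031-35172256, minus strand) are 11240 bases apart and followed opposite courses after 4 h. PGSC0003DMG400022341 was at 0.877, 0.490 and 0.366 FPKM at 0 h in X2, 15.6, 8.99 and 13.8 at 4 h, 2.82, 3.88 and 4.42 at 12 h, then 1.41 and 1.05 at 24 h. PGSC0003DMG400022342 was at 1.29, 0.687 and 0.915, then 2.42, 2.66 and 2.86, then 8.505, 7.89 and 11.04, then 55.5 and 70.0. The first was thus transient and the second late. In D6, PGSC0003DMG400022341 was at 3.08, then 129, 118 and 98.2, then 42.2, 20.9 and 29.4, then 3.29, 5.63 and 8.03. PGSC0003DMG400022342 was at 1.32, then 3.91, 2.95 and 2.35, then 15.8, 1.97 and 3.99, then 42.2, 35.8 and 17.4. The ratio of the means of the first to the second went from 4.82 at 4 h to 0.0196 at 24 h in X2 and from 37.5 to 0.178 in D6.

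On chromosome 4, PGSC0003DMG401025083 (chr4:61089724-61091577) and PGSC0003DMG402025083 (chr4:61099775-61103157) are 8197 bases apart, and PGSC0003DMG400025084 lies 6369 bases from the first. PGSC0003DMG402025083 was a late gene, at 2.57, 1.24 and 2.98 FPKM in X2 at 0 h, 14.9, 10.4 and 15.01 at 4 h, 29.9, 20.7 and 22.7 at 12 h, then 81.5 and 65.1 at 24 h. Its D6 libraries were at 5.26, then 46.0, 44.8 and 51.3, then 57.8, 66.1 and 70.0, then 189, 183 and 154. The ratio of the early to the late gene fell from 9.73 to 0.391 in X2 and from 11.4 to 0.898 in D6 between 4 h and 24 h, given as values with no test. On chromosome 1, PGSC0003DMG400032147 and PGSC0003DMG400032199 are 3678 bases apart on opposite strands. Their ratio was 59.3 at 4 h and 39.97 at 12 h in X2, against 2.62 and 0.777 in D6. Close copies can take reads from each other where sequences are near-identical, and how the counting treated such reads is not given for these genes.

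**Figure D3:**
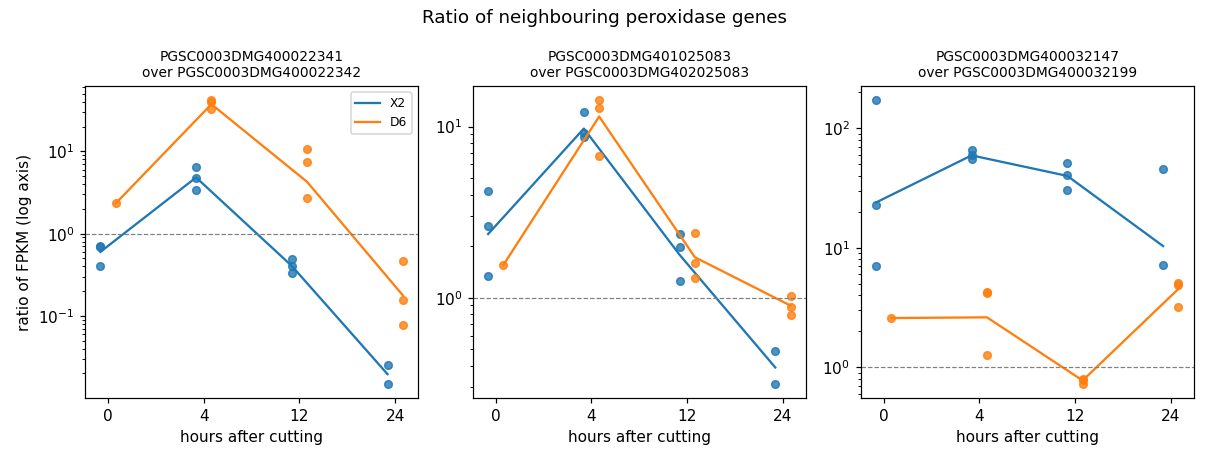
Ratio of FPKM between neighbouring peroxidase genes on a log axis against hours after cutting (equal spacing), with 1 point per library and lines through the ratio of the group means, X2 in blue and D6 in orange, and a dashed line at a ratio of 1. The first pair falls from 4.82 to 0.0196 in X2 and from 37.5 to 0.178 in D6 between 4 h and 24 h, and the third pair has higher ratios in X2 than in D6.

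Against 0 h, X2 members mostly rose. Tests were made with limma on log2(FPKM + 0.1) over genes with a mean of at least 0.5 FPKM in the libraries compared, and a gene was called where the log2 change was at least 1 in size and the unadjusted p-value was at most 0.01. At 4 h, 19 of 24 tested members were called higher and 1 lower, against 35.4% and 15.8% of 19063 genes. At 12 h, 23 of 27 were higher and 2 lower (background 36.6% and 17.5% of 19344 genes), and at 24 h, 21 of 27 were higher and 2 lower (33.5% and 17.0% of 19690 genes). The study chose its POD list on these X2 samples, so these counts are not independent evidence of a direction. The largest log2 changes at 4 h were those of PGSC0003DMG400011640 (5.59 ± 0.40, SE) and PGSC0003DMG400032147 (5.58 ± 0.33), with 3 libraries a group and adjusted p of 6.73e-06 and 2.53e-06. At 24 h PGSC0003DMG400014867 had risen by 7.31 ± 0.38 (SE, adjusted p = 2.42e-05). The median log2 change of tested members was 2.97, 3.11 and 4.04 at the 3 hours, beside 0.47, 0.47 and 0.37 over all genes tested. These medians cover members that passed the FPKM filter, some of them only through the hour at which they were high, and with no filter they were 2.14, 2.42 and 2.43 over 38, 39 and 39 members, beside 0.22, 0.24 and 0.27 over all genes. With size factors this median of all genes moved to -0.07, -0.04 and -0.03, and the split of calls became 17 higher and 5 lower at 4 h and 22 higher and 5 lower at 12 h. Lower calls numbered 2 at 4 h without X2 4 h replicate 2, 4 at 12 h without X2 12 h replicate 3 and 1 at 24 h without X2 24 h replicate 3. The 4 members called lower at 4 h only with size factors were PGSC0003DMG400011458, PGSC0003DMG400016223, PGSC0003DMG400024253 and PGSC0003DMG400003654, all in the group highest at 0 h.

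Some members had almost no reads in X2 at 0 h. PGSC0003DMG400004090 had 0 reads over the 3 libraries at 0 h and was at 2.78 and 2.42 FPKM at 24 h, at least 201-fold higher if 3 reads over the group are taken as the floor. Placing it at that bound left the median change at 24 h at 4.04. PGSC0003DMG400025803 (Peroxidase 10) had 0 reads at 0 h and at 4 h, 1 read over the 3 libraries at 12 h and 34 reads over the 2 libraries at 24 h. PGSC0003DMG400010465 and PGSC0003DMG400020494 had 1 read each over the 3 libraries at 0 h, and 436 and 75 at 12 h. The members tested in no comparison were 4, and none exceeded 1.35 FPKM in any library.

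In D6 the single library at 0 h allows no test, and folds are given as values. The filter used the mean of the 0 h library and those of the later hour, so some members passed only through the later hour. PGSC0003DMG400030430, at 1.35 FPKM at 0 h, did not pass at 4 h or 12 h. The members were also chosen by the study on X2, so these counts do not stand alone as evidence of a direction. At 4 h 24 of 31 members with enough signal were at least 1 higher on the log2 scale and 4 at least 1 lower, against 32.8% and 20.7% of genes. At 12 h the numbers were 24 and 3 of 31 (33.1% and 19.3%), and at 24 h 20 and 3 of 29 (31.8% and 17.4%). PGSC0003DMG400011640 was 6.28 higher at 4 h and PGSC0003DMG400014867 6.12 higher at 24 h on the log2 scale.

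From 4 h to 24 h, a comparison that does not use the 0 h libraries, members moved both ways in each cultivar. The study's choice of members on X2 also drew on its 4 h and 24 h samples. Counts that use X2, here and between the cultivars below, are therefore not independent of that choice when set beside all genes. In X2, 15 of 32 tested members were called higher at 24 h and 10 lower, against 18.3% and 17.9% of 19879 genes. In D6, 11 of 32 were higher and 11 lower, against 19.6% and 16.2% of 20143 genes. Of the 29 members tested in both cultivars, 10 were called higher and 6 lower in both, against 14.0% and 12.4% of 18840 genes. Libraries of the 2 hours did not overlap in 16 of 32 members upwards and 13 downwards in X2, against 35.0% and 45.6% of genes, and in 13 and 14 of 32 in D6, against 34.5% and 38.0%. Some members passed the FPKM filter only through the hour at which they were high. With no filter 16 of 39 were called higher and 10 lower in X2, beside 4498 and 3804 of 28704 genes. In D6 the numbers were then 12 and 11 of 39, beside 4629 and 3623 of 29434 genes.

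The largest rises in X2 were those of PGSC0003DMG400016453 (5.84 ± 0.23, SE, adjusted p = 7.52e-06), PGSC0003DMG400026575 (5.26 ± 0.65, adjusted p = 0.000427), described as a class III peroxidase, and Novel01676 (4.56 ± 0.42, adjusted p = 0.000117), all on the log2 scale. The second of these was at 0.758, 0.107 and 0.304 FPKM at 4 h and 9.79 and 25.5 at 24 h. The largest falls were those of Novel00377 (-5.47 ± 0.25, adjusted p = 1.04e-05), PGSC0003DMG400022341 (-3.25 ± 0.26, adjusted p = 6.12e-05) and PGSC0003DMG400024285, Peroxidase 44 (-3.06 ± 0.28, adjusted p = 0.000109). The last was at 1.34, 1.16 and 1.15 FPKM at 4 h and 0.0528 and 0.0634 at 24 h. In D6 the largest rises were those of Novel02497 (6.34 ± 0.36, adjusted p = 1.47e-05), PGSC0003DMG400016453 (4.90 ± 0.16, adjusted p = 5.17e-06) and PGSC0003DMG400022342 (3.26 ± 0.34, adjusted p = 0.000124). The largest falls were those of PGSC0003DMG400022341 (-4.41 ± 0.29, adjusted p = 2.3e-05), the cationic peroxidase PGSC0003DMG400012589 (-3.49 ± 0.51, adjusted p = 0.000672) and Novel00377 (-3.36 ± 0.54, adjusted p = 0.00102). PGSC0003DMG400012589 was at 2.51, 3.74 and 10.5 FPKM at 4 h in D6 and at 0.354, 0.210 and 0.438 at 24 h. Both anionic neighbours on chromosome 2 thus passed the test in opposite directions in each cultivar, since PGSC0003DMG400022342 rose by 4.51 ± 0.13 (adjusted p = 4.44e-06) in X2.

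Between the cultivars, the summed peroxidase FPKM was higher in every D6 library than in every X2 library at 4, 12 and 24 h, and more members were higher in D6 at the first 2 of these hours. At 4 h, 11 of 29 tested members were called higher in D6 and 2 lower, against 9.79% and 8.28% of 19455 genes. At 12 h, 10 of 29 were higher and 2 lower (6.55% and 6.05% of 19549 genes), and at 24 h, 6 of 28 were higher and 5 lower (6.47% and 5.31% of 20208 genes). The median difference of tested members was 0.86, 0.57 and 0.01 on the log2 scale, beside -0.16, -0.10 and -0.05 over all genes tested. Some members passed the FPKM filter only through the cultivar in which they were high. With no filter these medians were 0.69, 0.44 and 0.05 over 38, 39 and 39 members, beside -0.08, -0.05 and -0.03 over all genes. Higher calls were then 11, 10 and 6, beside 2581 of 29274, 1867 of 29355 and 1725 of 29447 genes. Lower calls were 4, 3 and 5, beside 2146, 1708 and 1600 genes. Of 25 members tested with the filter at all 3 hours, 5 were called higher in D6 each time, against 2.70% of 18117 genes. These were PGSC0003DMG400022341, PGSC0003DMG400024967, PGSC0003DMG401025083, PGSC0003DMG402025083 and PGSC0003DMG401029332. At 1 or more of the hours, 14 of 34 members were called higher in D6 and 7 lower, against 13.1% and 11.6% of 21368 genes. Lower calls at 4 h were 4 without any 1 of the D6 libraries, and those at 24 h were 3 without X2 24 h replicate 3. PGSC0003DMG401029332, which has no further description, was at 1.66, 1.23 and 1.56 FPKM in X2 and 7.92, 13.9 and 5.39 in D6 at 4 h.

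At 4 h the largest differences were those of PGSC0003DMG400022341 (3.19 ± 0.21, SE, D6 minus X2 on the log2 scale, adjusted p = 6.2e-05), PGSC0003DMG400032199 (3.01 ± 0.44, adjusted p = 0.00152) and Novel01676 (2.48 ± 0.35, adjusted p = 0.00132). PGSC0003DMG400032199 was at 1.59, 0.989 and 1.40 FPKM in X2 and at 5.81, 21.1 and 11.5 in D6. Lower in D6 were PGSC0003DMG400016223 (-2.23 ± 0.25, adjusted p = 0.000569) and PGSC0003DMG400032147 (-1.28 ± 0.27, adjusted p = 0.00736). At 12 h PGSC0003DMG400032199 led with 4.14 ± 0.26 (adjusted p = 4.82e-05), from 0.745, 0.582 and 0.888 FPKM in X2 and 21.3, 13.6 and 10.6 in D6. PGSC0003DMG400022341 followed with 2.99 ± 0.26 (adjusted p = 0.000199) and PGSC0003DMG400015548, Peroxidase 15, with 2.94 ± 0.29 (adjusted p = 0.000304). The latter was at 1.86, 2.57 and 1.76 FPKM in X2 and 25.4, 11.6 and 14.8 in D6 at 12 h, then the cultivars overlapped at 24 h. PGSC0003DMG400016223 (-1.79 ± 0.35, adjusted p = 0.00691) and PGSC0003DMG400032147 (-1.37 ± 0.28, adjusted p = 0.00839) were again the members called lower in D6.

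At 24 h the members furthest above X2 were Novel02497 (2.72 ± 0.37, adjusted p = 0.00429), PGSC0003DMG401029332 (2.68 ± 0.28, adjusted p = 0.00172) and PGSC0003DMG401025083 (2.45 ± 0.16, adjusted p = 0.000332). Those furthest below were PGSC0003DMG400004090 (-2.29 ± 0.29, adjusted p = 0.00343), PGSC0003DMG400001774 (-2.02 ± 0.39, adjusted p = 0.0139) and PGSC0003DMG400026575 (-2.002 ± 0.431, adjusted p = 0.0203). PGSC0003DMG400001774 was at 6.88 and 14.7 FPKM in X2 and 3.51, 1.79 and 2.21 in D6. Without X2 24 h replicate 3 the calls of PGSC0003DMG400001774, PGSC0003DMG400026575 and PGSC0003DMG400022341 were lost, with differences of -1.48, -1.32 and 1.84. Without D6 24 h replicate 2 that of PGSC0003DMG400026575 was lost (unadjusted p = 0.0109). The call of PGSC0003DMG400024967 was lost at 4 h without any 1 of the X2 libraries (unadjusted p between 0.0139 and 0.0165). At 24 h it was lost without X2 replicate 1 or replicate 3, with differences of 1.57 and 1.81.

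**Figure D4:**
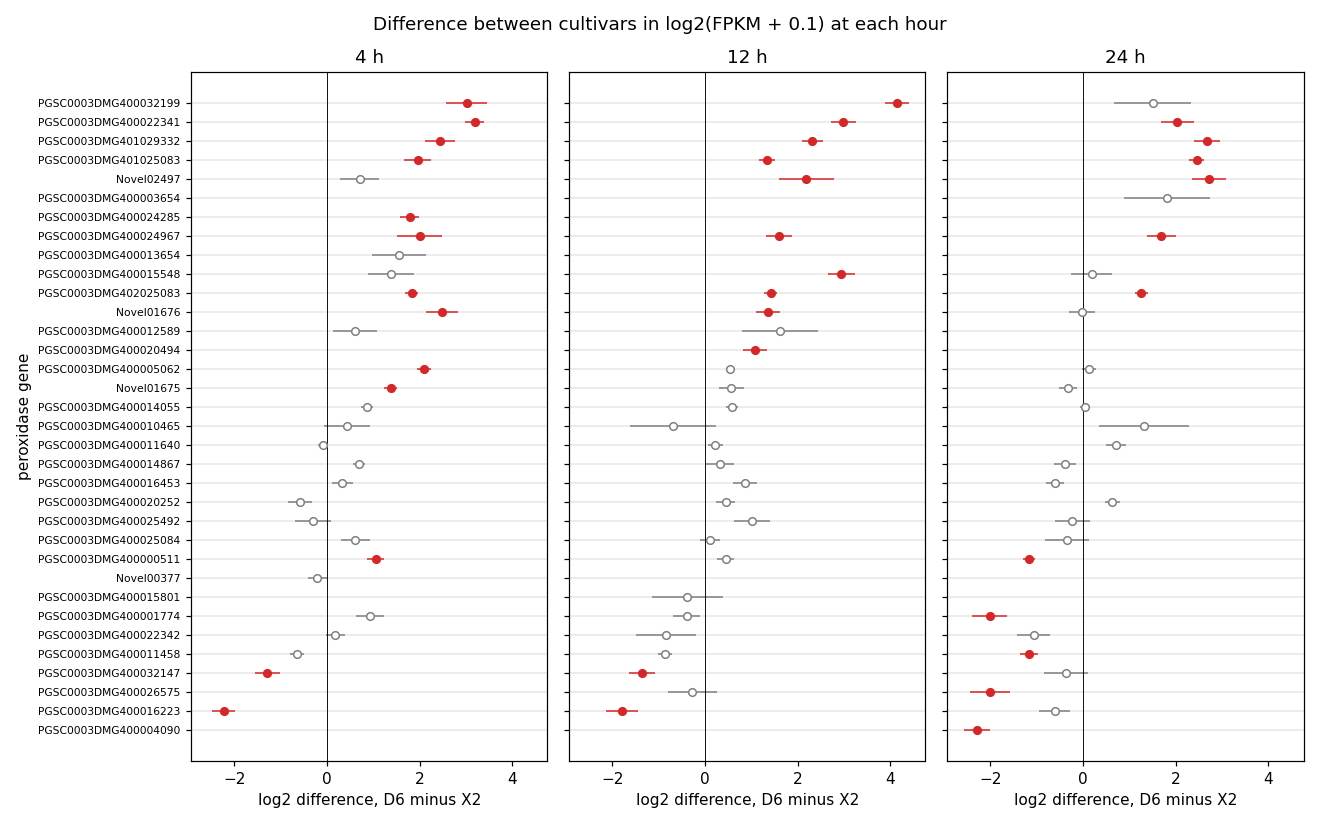
Difference between cultivars (D6 minus X2) in log2(FPKM + 0.1) at 4, 12 and 24 h for each tested peroxidase gene, with bars of 1 SE, filled red where called and open grey where not. Red points on the right number 11, 10 and 6 and those on the left 2, 2 and 5.

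The change from 4 h to 24 h differed between cultivars in 10 of 31 tested members, 3 with a more positive and 7 with a more negative change in D6, against 3.03% and 4.71% of 20360 genes. With no FPKM filter, 5 of 39 members had a more positive and 7 a more negative change, beside 818 and 1268 of 30608 genes. PGSC0003DMG400001774 (-2.94 ± 0.52, SE, D6 minus X2 on the log2 scale, adjusted p = 0.00605), PGSC0003DMG400004090 (-2.61 ± 0.57, adjusted p = 0.015) and Novel01676 (-2.50 ± 0.49, adjusted p = 0.00959) had the most negative differences. PGSC0003DMG400000511 followed with -2.23 ± 0.26 (adjusted p = 0.00103), having changed by 1.06 ± 0.10 in X2 and -1.17 ± 0.20 in D6. Without X2 24 h replicate 3 its X2 change was 0.93, and without D6 4 h replicate 1 its D6 change was -0.94, both under the threshold of 1. PGSC0003DMG400004090 had 21 reads over the X2 libraries at 4 h and 31 over those of D6. Its call was lost with a pseudocount of 0.01 (limma, unadjusted p = 0.012). The positive differences were those of Novel02497 (2.02 ± 0.61, adjusted p = 0.052), PGSC0003DMG400016223 (1.62 ± 0.45, adjusted p = 0.0378) and PGSC0003DMG400020252, Peroxidase 55 (1.22 ± 0.35, adjusted p = 0.041). The last was at 14.6, 13.9 and 13.8 FPKM at 4 h and 8.82 and 12.4 at 24 h in X2, and at 14.7, 7.71 and 7.13 and then 15.4, 16.9 and 16.5 in D6. Only 1 positive difference was called without any 1 of the X2 4 h libraries, X2 24 h replicate 1, or D6 4 h replicate 2 or 3.

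Other enzymes of phenolic and oxygen metabolism in the study's lists, chosen by it on the X2 samples too, were counted in the same comparisons. Over all tested genes, 18.3% were called higher and 17.9% lower from 4 h to 24 h in X2, and 19.6% and 16.2% in D6. The lists are short, and some of their counts lie near these shares. Phenylalanine ammonia-lyase (PAL), which supplies the phenolic precursors, had 3 of 10 tested genes called higher and 1 lower from 4 h to 24 h in X2, and the same numbers in D6. Polyphenol oxidase (PPO), which oxidises phenolics in browning, had 3 of 5 higher in X2 and 2 of 5 in D6. Catalase (CAT) and superoxide dismutase (SOD) remove reactive oxygen species, and 2 of 3 CAT and 1 of 3 SOD genes were higher at 24 h in X2, and 3 of 3 CAT and 1 of 3 SOD genes in D6. Of the respiratory burst oxidase homologs (Rboh), which form superoxide, 2 of 7 were higher and 1 lower in X2, and 3 of 7 higher in D6. Higher in D6 than in X2 at 4 h were 4 of 5 PPO, 3 of 6 Rboh and 3 of 10 PAL genes, while 2 of 3 CAT genes were lower. Over all genes the shares at 4 h were 9.79% higher and 8.28% lower. At 12 h 5 of 5 PPO, 1 of 6 Rboh and 2 of 10 PAL genes were higher and 2 of 3 CAT genes lower (6.55% and 6.05% of all genes). At 24 h the numbers were 1 of 5, 3 of 7 and 2 of 10 higher and 1 of 3 lower (6.47% and 5.31%).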

How the data were processed

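The deposited FPKM values were used. Per the study's methods, reads were cleaned of adapters, poly-N stretches and poor quality, HISAT aligned them to the SolTub_3.0 genome, featureCounts v1.5.0-p3 counted them per gene, and the authors scaled the counts to gene length and mapped reads. The name of X2 4 h replicate 2 stands over 2 columns, the second of them between X2 24 h replicates 1 and 3. Its sample is not certain, so that 1 column was not used and X2 has 2 libraries at 24 h. Read numbers were recovered as FPKM times length times library total, and all 819 member values were whole within 0.05 of a read. For 15 members the length itself was found from these steps. Tests used limma 3.58.1 in R 4.3.3 (lmFit, eBayes with trend) on log2(FPKM + 0.1), with only the groups compared, a mean of at least 0.5 FPKM, and Benjamini-Hochberg adjustment over all genes tested, so folds of low genes are understated. Data were simulated with independent normal noise and 200 genes shifted by 2 on the log2 scale, so smaller changes were not covered. For X2 4 h against 0 h (19063 genes), 194 were called, with 37 unchanged genes called. For X2 24 h against 0 h these numbers were 192 and 59, and for D6 24 h against 4 h 189 and 50. For the cultivar difference in change (20360 genes), 178 of 200 were called, with 86 unchanged ones. Python 3.11.15, pandas 2.3.3, numpy 2.4.6 and matplotlib 3.10.9 were used. Members and lists were chosen with earlier results of these data known. Library values are given for 15 members with a mean of at least 20 FPKM at some hour and for some members with a more specific description, and in comparisons the 3 largest called differences in each direction with no overlap of libraries are named; other named members were picked after their values were seen. Nothing in the labels shows separate tubers for each column beyond the study's statement of biological replicates.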

Additional observations from a re-analysis of the deposited data

Results flagged for a closer look

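In all, 10 members changed differently from 4 h to 24 h in the 2 cultivars by the test of the difference itself (limma, D6 change minus X2 change on the log2 scale). The differences were 2.02 for Novel02497, 1.62 for PGSC0003DMG400016223 and 1.22 for PGSC0003DMG400020252, and on the negative side -1.09 for PGSC0003DMG400014867, -1.70 for Novel01675, -1.97 for PGSC0003DMG400005062, -2.23 for PGSC0003DMG400000511, -2.50 for Novel01676, -2.61 for PGSC0003DMG400004090 and -2.94 for PGSC0003DMG400001774. For PGSC0003DMG400005062 the D6 libraries were the higher ones at 4 h and overlapped with X2 at 24 h. Leaving out 1 library ended some of these calls. That of PGSC0003DMG400014867 was lost without X2 24 h replicate 3, D6 4 h replicate 3 or D6 24 h replicate 2. Its difference was then -0.81, -0.95 and -0.94, under the threshold of 1 in size. That of PGSC0003DMG400016223 was lost without X2 4 h replicate 1 (unadjusted p = 0.0123) or D6 4 h replicate 2 (0.0106). It was also lost without X2 24 h replicate 3, with a difference of 1.38. The call of Novel02497 was lost without X2 4 h replicate 2 or 3, D6 4 h replicate 3 or D6 24 h replicate 1 or 2 (unadjusted p from 0.0104 to 0.0205). It was also lost without X2 24 h replicate 1, with a difference of 1.53. The call of PGSC0003DMG400020252 was lost without any X2 4 h library, D6 4 h replicate 2 or 3, or D6 24 h replicate 2 or 3 (unadjusted p from 0.0104 to 0.013). Without X2 24 h replicate 1 its difference was 0.98, under the threshold.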

How the results depend on the processing

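Total counts of called members, both directions together, stayed within 1.5 times the reported ones under all alternatives but 2, namely X2 4 h against 0 h with no FPKM filter (31 called, 26 higher and 5 lower, with 38 members tested) and D6 against X2 at 12 h with a log2 threshold of 1.5 (7 called, 6 higher and 1 lower). Counts in 1 direction, often small, moved more. With no FPKM filter, lower calls were 5 at 12 h against 0 h in X2 and 4 in D6 against X2 at 4 h, and positive cultivar differences in change were 5. Lower calls fell to 1 at 12 h and 24 h against 0 h in X2 with a mean of at least 1 FPKM or a log2 threshold of 1.5, to 1 and 0 with a pseudocount of 1, to 6 from 4 h to 24 h in X2 with a mean of at least 1 FPKM, and to 1, 1 and 3 in D6 against X2 at 4, 12 and 24 h with the threshold of 1.5. With 1 library left out, counts ran from 19 to 22, 24 to 27 and 22 to 24 for X2 at 4, 12 and 24 h against 0 h, 23 to 25 and 20 to 22 from 4 h to 24 h in X2 and D6, 12 to 16, 10 to 15 and 9 to 12 between cultivars at 4, 12 and 24 h, and 7 to 10 for the difference in change. Where 1 library was left at 24 h in X2, it was assumed to vary like the others. The replicate numbers did not pair the samples (correlations of same-numbered deviations between -0.156 and 0.159), and with a replicate block the counts were 20, 25 and 25 against 0 h in X2 and 24 from 4 h to 24 h in both cultivars. The same hour of the highest mean was found in 28 to 32 members. Of 161 calls of single members, 122 held under every alternative that gave a value, 24 were lost when 1 library was left out, and 0 changed sign. The D6 counts against 0 h, under size factors and a pseudocount of 1 chosen after seeing the data, ran from 24 to 28, 24 to 27 and 19 to 24. Depth sets the limit for low members: 3 reads on a gene of 1 kb are 0.0668 to 0.101 FPKM in X2 and 0.0842 to 0.124 in D6.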
